A study of Mus musculus with 6 samples.

Results

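Lin28a and Trim71 are RNA regulators of embryonic stem cells, and reverse-transcription stops at their RNA G-quadruplex (rG4) motifs were measured during differentiation of mouse embryonic stem cells. All sites whose gene field names either symbol were taken, which gave 11 of 5538 listed sites, 3 in Lin28a and 8 in Trim71. The cells were a clonal TsixTST/+ line that the labels give as 129S1/CastEiJ x 129S1, with genotype WT and treatment None, and this line served on all days. They were grown on inactivated feeder cells with leukemia inhibitory factor, then depleted of feeders and differentiated as embryoid bodies without that factor, in suspension to day 3 and attached to gelatin from then on. Days 0, 3 and 7 had 2 samples each, and every sample of every day was treated with dimethyl sulfate (DMS) as live cells. Each day 7 sample also has a second table that its name calls in vitro. How it was prepared is not described in the labels. Nor do they say whether replicates were separate cultures, and p-values therefore measure only how far these samples spread, which may be technical.

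Lin28a is an RNA-binding protein with a cold-shock domain and zinc knuckles that binds precursors of the let-7 microRNAs, at GGAG among other sequences, and blocks their maturation. Trim71, also known as LIN41, is a TRIM-NHL protein that represses bound messenger RNAs, and its own 3′ untranslated region (UTR) is a classical target of let-7. Both proteins are known for high expression in pluripotent cells and for a fall as let-7 accumulates during differentiation.

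An rG4 forms when runs of guanines stack as quartets around K+, and Li+ does not stabilise it. DMS methylates guanines whose ring nitrogen is free, so a motif folded in the cell is protected, refolds in K+ during reverse transcription and stops the enzyme. The stop share is the number of reads that ended at the site as a percentage of all reads over it. A K+ share above the Li+ share is the sign of a motif that can fold in the test tube and, in cell samples, of one that was protected from DMS.

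The motifs are lettered here from 5′ to 3′ along each transcript, and those of at most 30 bases are shown because the results below compare them. Capitals mark runs of at least 3 guanines, or of at least 2 in Trim71 b and Trim71 f, which the deposited tables class as two-quartet.
Lin28a a: gtggagaaagtGGGGGtaaGGGtGGG
Lin28a b: GGGGGtaaGGGtGGGttgcgtGGG
Lin28a c: GGGGaGGGtGGGaaaGGG
Trim71 a: gtatctggtaaagaaGGGtGGGtgtgtGGG
Trim71 b: GGaagaGGcGGtGGGGacaGGataaGGG
Trim71 c: GGGtgctGGGGGGcGGGGGGccg
Trim71 d: ggagctggcaggagctggtgaGGGtgg
Trim71 e: gtGGGGaGGGtgtggatgtGGGag
Trim71 f: GGtgaGGGtGGGtGG
Trim71 h: GGGtGGGaGGGttggttg
Trim71 g, of 60 bases, bridges Trim71 f and Trim71 h and is not printed.

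Lin28a b and Lin28a c are canonical motifs, with 4 runs of at least 3 guanines and short loops. Lin28a a and Trim71 a, c, d, e and h are classed as bulged motifs, and Trim71 g as a potential G-quadruplex. The letters GGAG occur in 5 of the 10 printed motifs (50%), against 62.8% of all 3370 listed motifs of 15 to 30 bases, and the reverse complement CTCC in 0 of 10, against 0.95%. The guanine content of the 11 motifs had a median of 66.7%, beside 61.5% over all 5538 sites.

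All 11 motifs lie on the minus strand and are placed in a 3′ UTR by the deposited tables (build mm10/GRCm38.p6). Lin28a a is at chr4:134006013-134006038, Lin28a b at chr4:134006004-134006027 and Lin28a c at chr4:134003569-134003586, and the first 2 overlap. In RefSeq (GRCm38.p6) Lin28a ends 239 bases downstream of the 3′ end of Lin28a c, 2674 downstream of that of Lin28a b and 2683 downstream of that of Lin28a a. Trim71 a is at chr9:114511928-114511957, Trim71 b at chr9:114510975-114511002, Trim71 c at chr9:114510843-114510865, Trim71 d at chr9:114509846-114509872 and Trim71 e at chr9:114508955-114508978. Trim71 f is at chr9:114507888-114507902, Trim71 g at chr9:114507836-114507895 and Trim71 h at chr9:114507830-114507847. Of these, only Trim71 a lies inside the RefSeq gene, 660 bases before its end. The other 7 lie 293 to 3438 bases past that end and rest on the longer transcript model ENSMUST00000111816.2 of the tables.

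**Figure D1:**
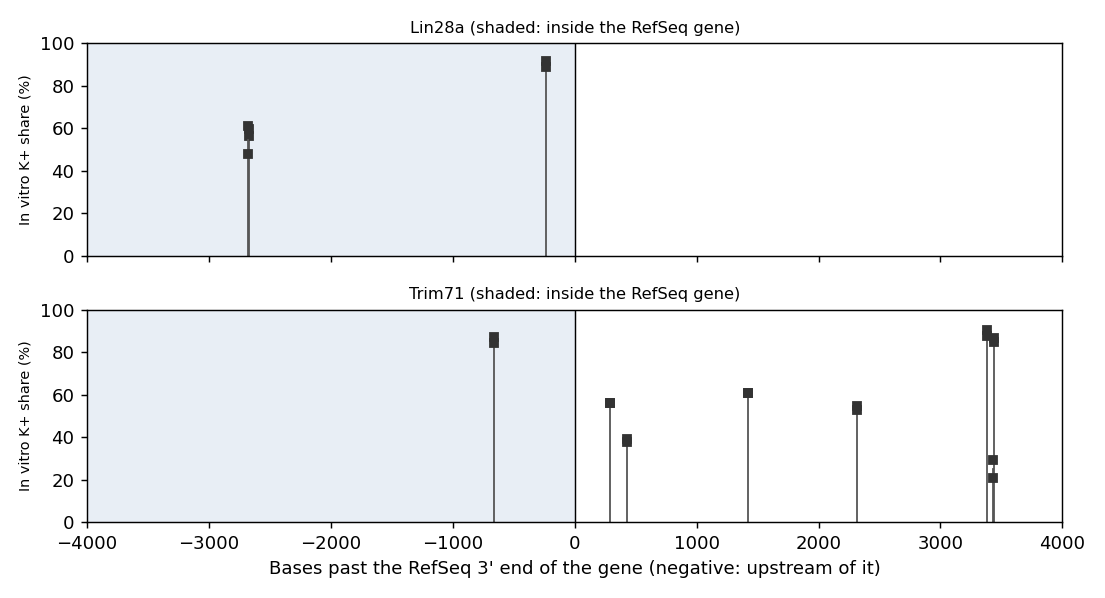
Horizontal axis: distance of each motif in bases from the RefSeq 3′ end of Lin28a (top) and Trim71 (bottom), with the inside of the gene shaded. Squares give the K+ stop share (%) in each of the 2 in vitro tables and lines their mean; 7 of the 8 Trim71 motifs lie past the RefSeq end, and the highest shares are at Lin28a c and at Trim71 a, f and h.

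In vitro, Lin28a c and Trim71 a, f and h had the highest K+ shares of the 11 motifs, all above those of the other 7. At Lin28a c the K+ share was 89.0% (2917 of 3277 reads) in replicate 1 and 91.8% (3210 of 3497) in replicate 2, against 23.8% and 30.8% in Li+. At Trim71 f it was 87.9% and 90.4%, against 4.65% and 9.62% in Li+. At Trim71 h it was 87.0% and 84.8%, against 4.51% and 7.14%, and at Trim71 a 84.3% and 87.4%, against 25.9% and 10.5%. All 4 hold 2 runs of at least 3 guanines that are 1 base apart, as do several motifs with lower shares. Lin28a c lay above 96.7% and 97.4% of the sites with at least 20 K+ reads in the 2 tables.

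Shares were intermediate elsewhere. They were 48.1% and 61.0% at Lin28a a, 56.5% and 59.5% at Lin28a b, 56.2% and 56.0% at Trim71 b, 60.7% and 60.7% at Trim71 d, and 52.9% and 54.7% at Trim71 e. The lowest were 39.4% and 37.7% at Trim71 c, the motif with the longest guanine runs, and 29.1% and 20.7% at Trim71 g. In both in vitro tables K+ exceeded Li+ at all 5538 sites, with a lowest ratio of 1.10, and limma called 99.7% of the 2648 sites tested. The sites were therefore chosen on these tables or on data like them, and the in vitro K+ against Li+ values are a description with no test.

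Overlapping motifs share reads. Reverse transcription enters from the 3′ side and meets Trim71 h before Trim71 g. In replicate 1, 71 of 544 K+ reads passed the stop of Trim71 h and 103 K+ reads covered that of Trim71 g, against 111 and 207 reads in Li+. In replicate 2, 90 of 594 passed and 145 covered Trim71 g. Lin28a b likewise had 1061 and 1590 K+ reads, of which 462 and 644 passed, while Lin28a a had 206 and 282. In Li+ the same pair had similar coverage, 254 and 154 reads at Lin28a b and 247 and 162 at Lin28a a. The K+ shares at Trim71 g and Lin28a a were thus measured on fewer reads than those of the motif just downstream.

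In cells the stops were far fewer and K+ did not exceed Li+ in every library. Listed reads ran from 413278 to 4212056 per library and cation, of which 9 ribosomal and mitochondrial sites held 63.5% to 83.8%. Among sites with at least 20 reads in both cations, K+ was above Li+ at 41.3% and 29.1% of sites in the day 0 samples, at 73.2% and 59.0% on day 3 and at 66.0% and 41.8% on day 7. The median K+ share was thus below the median Li+ share in both day 0 samples and in day 7 replicate 2, and every comparison of cations below carries that offset. Fits with each library centred on its median log2 odds are given below for Lin28a c and for Trim71 e, g and h. Beyond such fits, the part of the offset in the results was not tested. Of the Lin28a and Trim71 motifs with that many reads, K+ was above Li+ in 4 of 9 and 3 of 6 on day 0, in 4 of 5 and 6 of 7 on day 3, and in 10 of 11 and 5 of 9 on day 7.

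**Figure D2:**
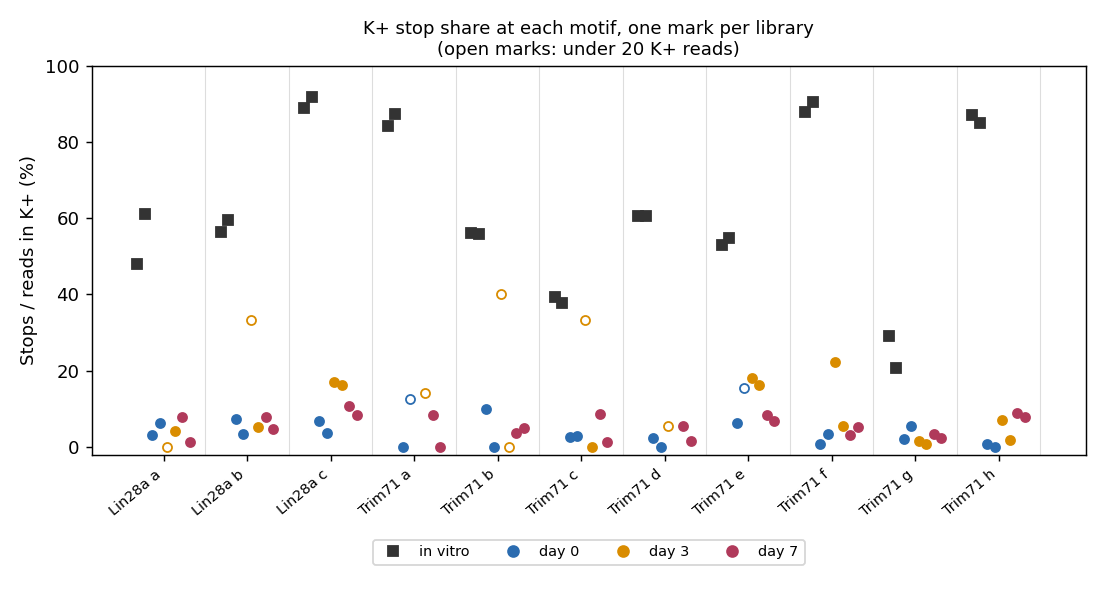
Vertical axis: K+ stop share (%) at each of the 11 motifs, one mark per library, squares for the in vitro tables and circles for cells by day; open circles have under 20 K+ reads. In vitro shares run from 20.7% to 91.8%, while in cells the shares with at least 20 reads run from 0% to 22.2%.

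Lin28a c was the most deeply covered motif of both genes in cells, with 82 to 1107 K+ reads. Its K+ share was 6.87% (27 of 393 reads) and 3.60% (4 of 111) on day 0, 17.1% (14 of 82) and 16.1% (30 of 186) on day 3, and 10.8% (120 of 1107) and 8.38% (43 of 513) on day 7. Both day 3 samples lay above both day 7 samples, and these above both day 0 samples. On the log2 odds scale the difference of day 3 from day 0 was 1.78 ± 0.46 (SE, n = 2 against 2), with an unadjusted p of 0.00325 and an adjusted p of 0.587 in limma. Day 7 differed from day 0 by 0.86 ± 0.46 (adjusted p = 0.66), and day 7 from day 3 by -0.92 ± 0.38 (adjusted p = 0.98). All 954 sites tested had a median difference of 0.81 between day 3 and day 0. With each library centred on its median the value at Lin28a c was 0.91 ± 0.43.

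No site was called in the K+ share between days (0% of 954), and 4 of the 11 motifs had the 20 reads per library that the test asks for. At an unadjusted p under 0.05 there were 75 sites for day 3 against day 0, 70 for day 7 against day 0 and 36 for day 7 against day 3.

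In Li+, Lin28a c had shares of 5.88% (9 of 153 reads) and 18.2% (25 of 137) on day 0, 5.78% (17 of 294) and 2.59% (3 of 116) on day 3, and 4.35% (93 of 2138) and 8.04% (30 of 373) on day 7. Day 0 replicate 2 stands apart with a Li+ share above its K+ share and above every K+ share of Lin28a c in cells. Whether its cations are labelled in the right order cannot be told from the tables, and the order of days and the differences between them hold for the labels as deposited. Fisher's exact test, two-sided, adjusted over all sites of a sample, called Lin28a c in both day 3 samples (adjusted p = 0.0208 and 0.015) and in day 7 replicate 1 (adjusted p = 1.52e-09), with K+ higher. It also called it in day 0 replicate 2 with Li+ higher (adjusted p = 0.0269), and not in day 0 replicate 1 or day 7 replicate 2 (adjusted p = 1 in both). The test called 0.58% and 1.3% of all sites on day 0, 15.8% and 0.824% at day 3 and 4.47% and 0.294% at day 7. Each such test compares 1 K+ with 1 Li+ library and covers counting error only, here and for the motifs below. In day 0 replicate 2, 14 of its 17 called sites had Li+ higher.

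Over replicates, the log2 odds of a stop at Lin28a c in K+ minus Li+ were -1.03 ± 0.60 on day 0, 2.12 ± 0.62 on day 3 and 0.79 ± 0.57 on day 7 (SE, n = 2). The day 3 value had an unadjusted p of 0.00414 and an adjusted p of 0.275 in limma. The change from day 0 to day 3 was 3.14 ± 0.86, with an unadjusted p of 0.00252 and an adjusted p of 0.174. Over all 847 sites tested, the medians of K+ minus Li+ were -0.33, 0.70 and 0.20 on days 0, 3 and 7. With each library centred the change at Lin28a c was 1.97 ± 0.76 (adjusted p = 0.496), and without day 0 replicate 2 the day 0 value was 0.19 ± 0.73 and the change 1.94 ± 0.89 (adjusted p = 0.926). None of the 847 sites was called on any day (0%). At an unadjusted p under 0.05 there were 24 sites on day 0, 96 on day 3 and 29 on day 7.

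**Figure D3:**
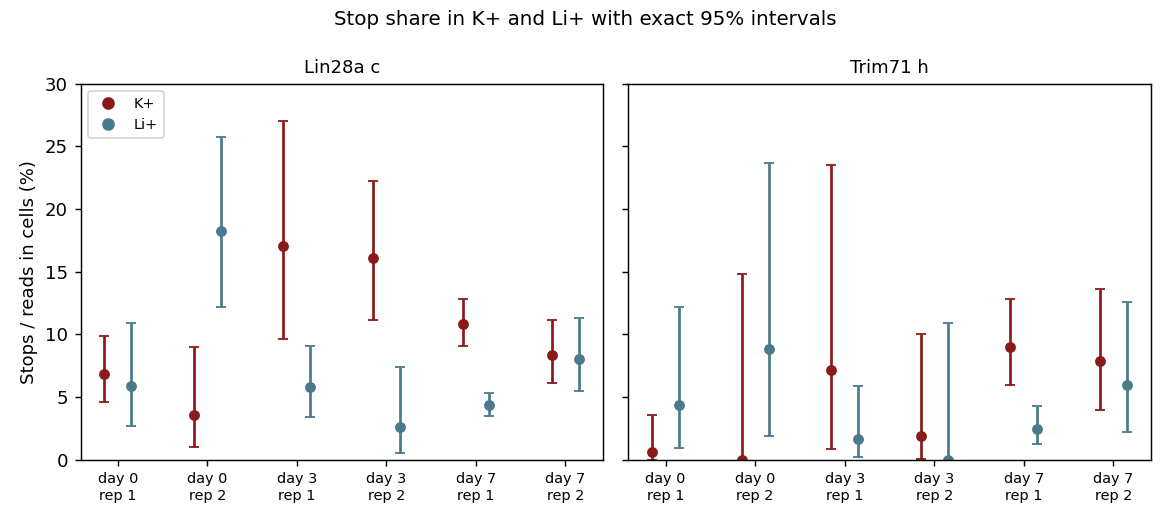
Vertical axis: stop share (%) in cells for K+ and Li+ in each sample, with exact 95% Clopper-Pearson intervals that cover counting error only. At Lin28a c (left) the intervals of the 2 cations are apart in both day 3 samples and in day 7 replicate 1, and in the opposite order in day 0 replicate 2; at Trim71 h (right) they are apart in day 7 replicate 1.

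Trim71 h, the motif farthest along the Trim71 transcript, had K+ stops mainly on day 7. It had 1 stop in 152 K+ reads (0.658%) and 0 in 23 on day 0, the latter of which allows a share of up to 13.0%. On day 3 it had 2 in 28 (7.14%) and 1 in 53 (1.89%), and on day 7 26 in 290 (8.97%) and 11 in 140 (7.86%). Both day 7 samples lay above the other 4. The difference of day 7 from day 0 was 2.97 ± 1.28 in log2 odds (unadjusted p = 0.0446, adjusted p = 0.649 in limma). Its Li+ shares were 4.35% and 8.82% on day 0, 1.67% and 0% (0 of 32, up to 9.38%) on day 3, and 2.48% and 6% on day 7. Fisher's exact test called it with K+ higher in day 7 replicate 1 (adjusted p = 0.00463). The change of K+ minus Li+ from day 0 to day 7 was 3.86 ± 1.41 (unadjusted p = 0.0154, adjusted p = 0.676 in limma). Over all 847 sites tested the median change was 0.55. With each library centred the change at Trim71 h was 3.35 ± 1.19 (adjusted p = 0.815 in limma).

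Trim71 f lies upstream of Trim71 h in the same stretch and overlaps the other end of Trim71 g. Day 0 gave 1 stop in 109 K+ reads (0.917%) and 1 in 30 (3.33%), and later days 6 in 27 (22.2%) and 3 in 54 (5.56%) on day 3, and 7 in 218 (3.21%) and 5 in 93 (5.38%) on day 7. The 22.2% of day 3 replicate 1 stood alone and was called by Fisher's exact test (adjusted p = 0.00226, Li+ 1 of 124), in the sample where 15.8% of all sites were called. Trim71 g, in between, stayed at 0.909% to 5.56% in K+ and at 0% to 3.33% in Li+ over the 6 samples. Its K+ minus Li+ log2 odds were 2.00 ± 1.17 on day 0, -0.51 ± 1.10 on day 3 and 0.28 ± 0.71 on day 7. With each library centred they were 2.32 ± 1.06, -1.32 ± 1.00 and 0.11 ± 0.65.

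Trim71 e had 4 stops in 22 K+ reads (18.2%) and 6 in 37 (16.2%) on day 3, with 0 in 81 and 0 in 30 Li+ reads. The exact 95% intervals of these Li+ shares reach 4.45% and 11.6%. On day 0 it had 6 in 95 (6.32%) and 2 in 13 (15.4%), and on day 7 15 in 179 (8.38%) and 6 in 87 (6.90%). Fisher's exact test called it in day 3 replicate 1 (adjusted p = 0.016). It lacked the reads for the test over replicates at a minimum of 20. At a minimum of 10 its K+ minus Li+ log2 odds on day 3 were 4.68 ± 2.04 (unadjusted p = 0.0377, adjusted p = 0.508 in limma). With each library centred they were 3.90 ± 1.88 (adjusted p = 0.696 in limma).

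Lin28a b was called by Fisher's exact test in day 7 replicate 1, with 24 stops in 304 K+ reads (7.89%) and 2 in 556 Li+ reads (0.360%; adjusted p = 1.81e-07). In day 7 replicate 2 the order was reversed, with 6 in 128 (4.69%) and 7 in 104 (6.73%). Lin28a a, which overlaps it, had 22 in 281 (7.83%) and 2 in 150 (1.33%) in K+ on day 7, against 3.25% and 0.962% in Li+. The remaining Trim71 motifs, a to d, had at most 8 K+ stops in any cell sample, and none was called by Fisher's exact test where it was tested. None had the 20 reads in both cations that this test asks for in day 0 replicate 2 or on day 3. In day 3 replicate 1, Trim71 c had 5 stops in 15 K+ reads and Trim71 b 4 in 10. In day 3 replicate 2 they had 0 in 35 and 0 in 14. Trim71 a and Trim71 d were listed at 0 K+ reads in 1 day 3 sample each, and a listed 0 stands for at most 5 reads because the lowest coverage listed is 6.

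The in vitro excess of K+ over Li+ was larger than that of day 7 at most motifs. Of the 11 motifs, 9 had at least 20 reads in all columns, and 8 of these were called, all with the larger excess in vitro. The background was 74.7% of 2648 sites. The difference of in vitro from day 7, in log2 odds of K+ over Li+, was 6.66 ± 0.91 at Trim71 f (limma, adjusted p = 9.35e-05), 5.28 ± 0.84 at Trim71 h (0.000226) and 3.90 ± 0.60 at Lin28a c (0.000192). The median over all sites tested was 3.38, with quartiles of 2.43 and 4.36, so Trim71 f and Trim71 h lay above the upper quartile. Lin28a b had the smallest difference, 2.48 ± 1.13, and was not called (adjusted p = 0.0561). It was 5.43 ± 0.95 and called when day 7 replicate 1 was dropped (adjusted p = 0.00531), and 0.62 ± 1.68 when day 7 replicate 2 was (adjusted p = 0.741). It was also called with the replicate number as a block (adjusted p = 0.0439) and with a pseudocount of 1 (0.0395).

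Because the sites were chosen for their in vitro excess, this difference is no independent result for the motifs. With each table centred on its median, which removes the common excess, only Trim71 f was called among the 9. Of all 2648 sites, 90 were then called, 19 higher and 71 lower. Centring does not undo the choice of sites. Trim71 e, Trim71 g and Lin28a b had the lowest differences.

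**Figure D4:**
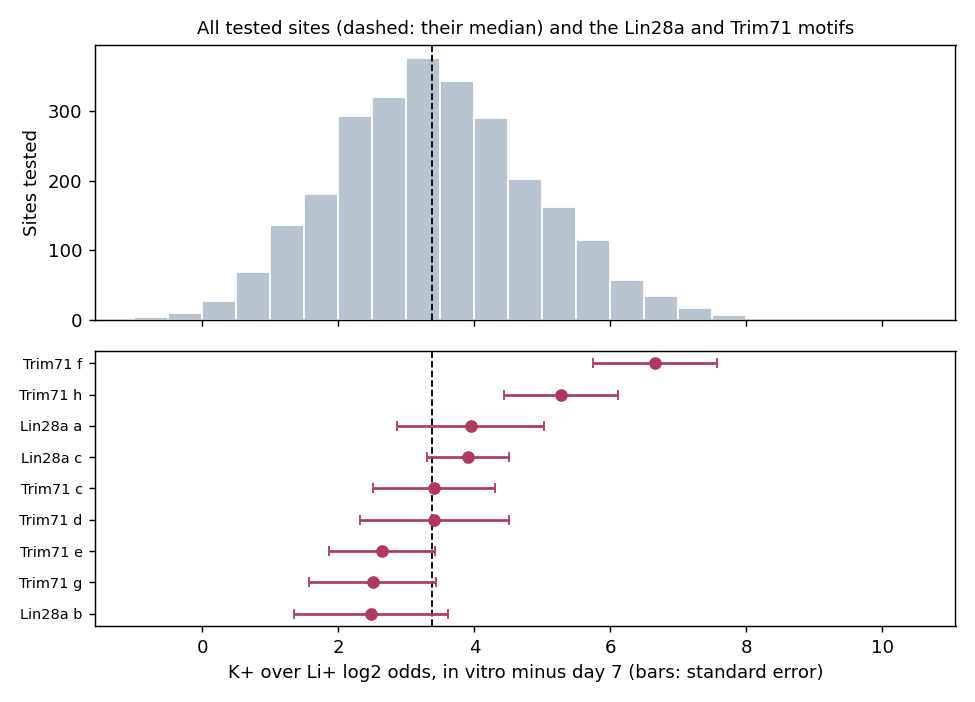
Horizontal axis: log2 odds of a stop in K+ over Li+, in vitro minus day 7. Top: number of sites in bins of 0.5 over the 2648 sites tested, with their median of 3.38 dashed; bottom: the 9 tested motifs with standard errors, where Trim71 f (6.66) and Trim71 h (5.28) lie farthest to the right.

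Reads over a motif, K+ and Li+ summed and scaled to a common library size (CPM), follow the amount of the sequenced RNA, which the protocol in the labels gives as poly A+ RNA from an insoluble chromatin pellet. Fewer cells of a type and less RNA per cell cannot be told apart in such bulk samples. Levels of different motifs are not compared, since coverage depends on the sequence and on the stops themselves.

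Reads over the 3 Lin28a motifs were higher on day 7 than on day 0 in every sample, and 1 motif passed the test. Lin28a b had 25.2 and 49.5 CPM on day 0, 40.4 and 54.5 at day 3, and 91.8 and 68.1 at day 7. Both day 7 samples were above the other 4. The log2 difference of day 7 from day 0 was 1.40 ± 0.39 (fold 2.64, SE, n = 2 against 2), with an adjusted p of 0.0426 in limma-voom. Over all 4990 sites tested, 20.3% were called between these days, 16.1% as higher and 4.21% as lower, with a median log2 difference of 0.51. The call was lost with the replicate number as a block (adjusted p = 0.0874) and without any one of the 6 samples (adjusted p from 0.0589 to 0.289). Without day 0 replicate 1 the difference was 0.70 ± 0.43.

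Lin28a a had 35.0 and 52.0 CPM on day 0, 58.0 and 64.4 at day 3, and 92.3 and 74.6 at day 7, a log2 difference of 1.07 ± 0.32 between days 7 and 0 (adjusted p = 0.0535). It was called with median-ratio scaling (adjusted p = 0.0434). Lin28a c had 172 and 212 CPM on day 0, 174 and 249 at day 3, and 346 and 260 at day 7. Its means were 192 ± 28 (SD, n = 2), 212 ± 53 and 303 ± 61, of which those of days 0 and 3 overlap, and those of days 3 and 7 did not differ beyond the test (0.55 ± 0.29, adjusted p = 0.283). The log2 difference of day 7 from day 0 was 0.68 ± 0.29 (adjusted p = 0.13). Relative to the median of all sites, the 3 differences are smaller by 0.51, and none of the 3 was called between day 3 and day 0 (background 0.0802%, 0.0601% higher) or day 7 and day 3 (background 12.1%, 10.4% higher and 1.66% lower).

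Reads over the 8 Trim71 motifs had log2 differences of -0.17 to 0.63 between day 7 and day 0, with a median of 0.23, and none was called (lowest adjusted p = 0.333). Trim71 g, the Trim71 motif with most reads, had 155 and 97.3 CPM on day 0, 151 and 154 at day 3, and 152 and 137 at day 7. The day 7 samples lay between those of day 0, and the difference was 0.20 ± 0.29. Trim71 h had 69.7 and 48.6 CPM on day 0 and 82.5 and 70.5 on day 7. Trim71 f had 62.4 and 46.1 CPM on day 0, 70.1 and 73.5 at day 3, and 59.2 and 45.8 at day 7. The samples of day 0 and day 7 overlapped there. Against day 3, the day 7 differences ran from -0.44 to 1.00 and none was called.

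**Figure D5:**
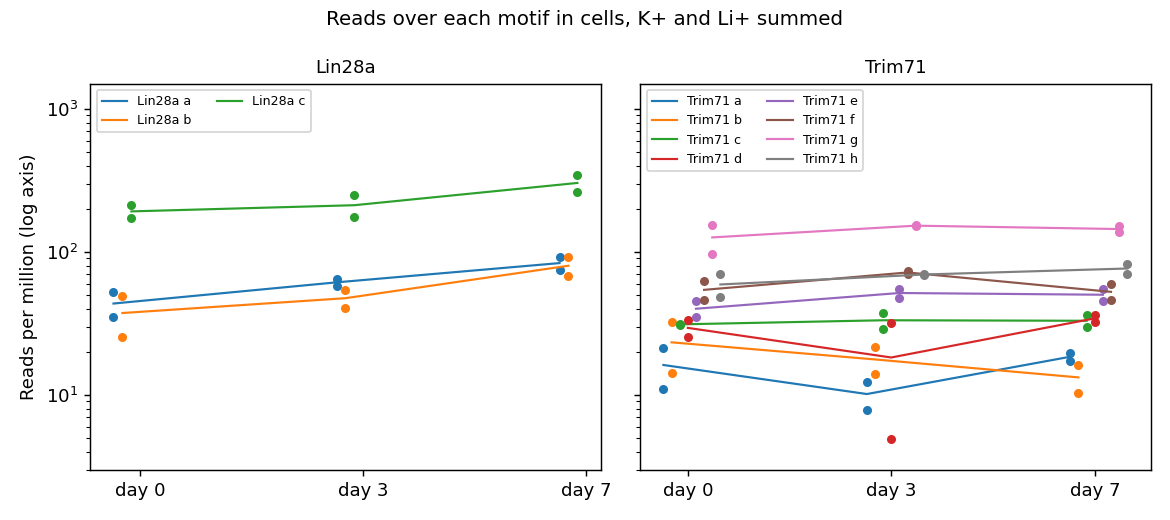
Vertical axis, logarithmic: reads over each motif in cells (CPM, K+ and Li+ summed) on days 0, 3 and 7; points are samples and lines join day means. The 3 Lin28a motifs are highest in the day 7 samples, while no Trim71 motif differed between days by the test.

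Markers of pluripotent cells moved in the opposite direction to the Lin28a reads. All 4 pluripotent markers in the tables (of 11 listed) fell from day 0 to day 7, among them Pou5f1, the core pluripotency factor, by 2.90 ± 0.42 on the log2 scale (adjusted p = 0.00373). Their summed level was 1156 and 1045 CPM on day 0, 1207 and 1232 at day 3, and 170 and 322 at day 7. Of 6 markers of differentiating derivatives, 5 were called higher, and the 6 summed to 0 and 11.9 CPM on day 0 and 507 and 517 on day 7. Over all 2379 genes tested, 349 were called higher and 132 lower. The 5 markers were listed at 0 in all day 0 samples. They passed the filter on low counts only through samples of later days, so these calls alone do not show a rise. With a listed 0 set at a floor of 10 reads, Fgf8 was at least 29.9-fold and Krt18 at least 25-fold higher. For Krt8 and Sox11 the bounds were 20.2-fold and 6.35-fold, and for T only 1.01-fold. Nes, which was not called, was 3.92-fold higher on that floor. The 2 feeder fibroblast markers in the tables, Fn1 and Col1a1, summed to 74.1 and 25.6 CPM on day 0 and 86.8 and 93.3 on day 7. Col1a1 was at 0 reads in all day 0 and day 3 samples and was called higher on day 7 (adjusted p = 0.0032 in limma-voom). Col1a1 too passed the filter only through its day 7 samples. On the same floor it was at least 1.42-fold higher. The part of the changing mixture of cells in the Lin28a reads was not tested.

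K+ stop counts, which combine RNA amount and stop share, were tested for 1 of the 11 motifs. Unscaled, the stops at Lin28a c were 27 and 4 (day 0), 14 and 30 (day 3) and 120 and 43 (day 7). After scaling, day 7 differed from day 0 by 0.83 ± 0.51 on the log2 scale (adjusted p = 0.309 in limma-voom) and day 3 from day 0 by 0.85 ± 0.53 (adjusted p = 0.421). The background was 16.2% of 327 sites for day 7 against day 0 (10.1% higher and 6.12% lower), 0.612% for day 3 against day 0 and 6.42% for day 7 against day 3 (5.5% higher). Scaled by total counts alone, day 7 differed by 1.96 ± 0.69 (adjusted p = 0.029), where the median of all sites was 1.26. Without the filter on low counts, Trim71 h was called between day 7 and day 0 at 3.17 ± 0.74 (adjusted p = 0.00373 in limma-voom), from 1 and 0 stops at first to 26 and 11 at the end. That fit called 154 of 5037 sites, 132 higher and 22 lower. With 1 sample left out Trim71 h passed the filter in 3 of 6 fits, each time only through its day 7 samples. Those fits alone therefore do not show a rise. The difference was 2.55 ± 0.73 when day 3 replicate 1 was dropped, 2.54 ± 0.78 when the other day 3 sample was, and 2.65 ± 0.51 when day 0 replicate 2 was.

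Other genes of the let-7 pathway were taken at their site with most reads. None of the 9 tested members of the let-7 processing and microRNA machinery list (of 25) was called in reads between day 7 and day 0. The median log2 difference was 0.75, or 0.02 with every listed 0 at the floor of 10 reads, beside 0.42 over 2379 genes, of which 349 were called higher and 132 lower. Hnrnpa1, which binds primary let-7 transcripts, had a difference of 0.91 ± 0.38 (adjusted p = 0.12), Ddx5, a helicase of the Microprocessor, 0.31 ± 0.32 (0.517), and Khsrp, which promotes let-7 maturation, 0.02 ± 0.31 (0.964).

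Of 13 tested targets of let-7 or Lin28, 5 were called higher on day 7 and none lower, with a median of 2.80. Over all 2379 genes, 349 were called higher and 132 lower. Irs2 and Insr of insulin signalling, Igf1r, the receptor for insulin-like growth factor, and Igf2bp3, an RNA-binding protein of oncofetal expression, were listed at 0 reads in all day 0 samples. They passed the filter on low counts only through their day 7 samples, so these calls alone do not show a rise. Against the floor of 10 reads per sample, Irs2 was at least 3.45-fold and Igf2bp3 at least 1.72-fold higher, while no fold can be given for Igf1r and Insr. With every listed 0 set at the floor, the median of the list was -0.02. Arid3a, a transcription factor, had 45 and 0 reads at day 0 against 880 and 244 at day 7 (adjusted p = 0.039), a fold of 7.29 with the listed 0 set at that floor. Igf2bp1, the target with most reads, had 1039 and 312 reads on day 0 and 3255 and 1095 on day 7, a scaled log2 difference of 0.17 ± 0.25 (adjusted p = 0.655). Hras had -0.32 ± 0.30 and Cdc34 -0.02 ± 0.32.

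Of 3 tested targets of Trim71, Egr1, an immediate early transcription factor, was called higher, from 0 reads on day 0 to 93 and 62 on day 7 (at least 2.41-fold). The background was 349 of 2379 genes called higher. Egr1 too passed the filter only through its day 7 samples. Cdkn1a, the cell cycle inhibitor whose messenger RNA Trim71 represses, had 549 and 234 reads on day 0 and 1672 and 496 on day 7, a scaled difference of -0.19 ± 0.26 (adjusted p = 0.63). E2f7, a repressor of the cell cycle, had 34 and 0 reads before differentiation and 104 and 32 at day 7 (adjusted p = 0.0924), a fold of 1.06 with the listed 0 at the floor.

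Among 10 tested other RNA-binding proteins of stem cells, 3 were called higher on day 7 and none lower, with a median of 1.99, or 0.25 with every listed 0 at the floor. The background was 349 of 2379 genes called higher and 132 lower. Zfp36 and Zfp36l2, which promote decay of AU-rich messages, were listed at 0 on day 0 and were at least 2.40-fold and 1.27-fold higher. Both passed the filter only through samples of later days. Msi2, a Musashi translational regulator, had 27 and 0 reads on day 0 against 176 and 54 on day 7 (adjusted p = 0.0384), a fold of 2.03 with the listed 0 at the floor. Pum2, a Pumilio repressor, had a difference of 0.15 ± 0.31 (adjusted p = 0.753), and L1td1, an RNA-binding protein of pluripotent cells, -0.62 ± 0.44 (0.333). Between day 3 and day 0 no gene of these 4 lists was called, beside only 2 of all 2379 genes tested.

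The genes whose reads ran most like those of Lin28a c over the 6 cell samples, among 1155 genes with a median of at least 50 reads, were Oaz2 (Pearson's r = 0.979), Ywhae (0.964), Top1 (0.958), Ssrp1 (0.946) and Csrp1 (0.940). Without day 0 replicate 1 and day 7 replicate 1, the 2 samples farthest from the median, r ran from 0.855 to 0.984. For Trim71 g they were Ccng1 (0.992), Dusp9 (0.991), Slc19a2 (0.989), Cdk7 (0.985) and Klhl8 (0.984). These rest on the low value of day 0 replicate 2: without it and day 7 replicate 2, r was -0.953 for Ccng1, 0.126 for Dusp9 and 0.814 for Cdk7. Between Lin28a c and Trim71 g, r was 0.07. The points share library and depth, and the values are a description over 6 samples.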

How the data were processed

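Stops and coverage at rG4 sites were read from 8 deposited tables of 6 samples. The submitters' processing notes name STAR, SAMtools and cutadapt, and builds GRCm38.p6 and mm10. Their versions and settings, and the handling of strand and multiple matches, are not stated in the labels. Per the file headers, the deposited values (entered here under no standard unit, since each record spans 2 lines) are whole-number read counts of coverage and stops in K+ and Li+, without normalisation. Motif starts count from 0 in the tables and from 1 here.

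Reads and K+ stops were tested with limma-voom (limma 3.58.1, R 4.3.3) over all 6 cell samples in 1 fit, with scaling factors from the trimmed mean of M values (TMM). Sites needed 10 counts at the median library size in 2 libraries and 15 in all. Shares were tested in limma as log2 odds with a pseudocount of 0.5 and beta-binomial weights at sites with 20 reads in every library. In fits of both cations, the K+ and Li+ libraries of a sample entered without a term for their pairing. Fisher's exact test was run per sample with scipy 1.17.1. A call is an adjusted p under 0.05 (Benjamini-Hochberg, all sites tested). Scaling factors were first computed over all sites and then over the sites passing the filter, and the second was kept after both results were seen. Scripts were tested on simulated data. Alternatives were other scalings, filters, minima and pseudocounts, no weights, a replicate block, leaving out each sample and, chosen after seeing the data, listed zeros set at a floor of 10 reads.

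The 11 motifs and the gene lists were chosen with earlier results of these data known. Named are all 11 motifs, list genes that passed a test, up to 3 others per list with most reads (1 of these is not reported here), and the 5 genes of most like pattern. Sequences come from the deposited tables, gene ends from RefSeq. Of 2735 symbols, 2670 matched RefSeq, 8 more as a synonym.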

Additional observations from a re-analysis of the deposited data

Results flagged for a closer look

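Lin28a b had a lower share in K+ than in Li+ in both day 0 samples, by -5.50 and -0.238 percentage points, and a higher one in both day 3 samples, by 28.4 and 5.26 points, a difference of the means of 19.7 points. It was flagged because the samples of the 2 days differed in opposite directions. The difference was not tested, since the motif lacked reads on day 3, where the first sample had 2 stops in 6 K+ reads. Sites at large shifted the same way. Among those with at least 20 reads in both cations, K+ was above Li+ at 41.3% and 29.1% on day 0 and at 73.2% and 59.0% on day 3.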

How the results depend on the processing

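No motif of Lin28a or Trim71 was called in the K+ share, in K+ against Li+ or in the change of those odds under any alternative tried. Deviations from day means in samples of the same replicate number correlated at 0.252 (days 0 and 3), -0.049 (days 0 and 7) and 0 (days 3 and 7). With 2 samples a day this cannot settle whether the numbers pair the samples, and the block on replicate number is 1 alternative among others. The K+ and Li+ libraries of a sample are paired by the design, and the main fits of both cations leave that pairing out. In the cell fits of both cations the block was instead a term for each sample, which takes it in. None of the 4 tested motifs was called with it. Sites or motifs called changed as follows. With total counts alone, K+ stops called 93 sites for day 7 against day 0 (89 higher and 4 lower, against 33 and 20, with the median log2 moved to 1.26) and 1 motif, and 43 for day 3 against day 0, and reads called 3 motifs for day 7 against day 0 (Lin28a a, b and c; 1152 sites higher and 22 lower, against 802 and 210, with the median moved from 0.51 to 1.18) and 9 sites for day 3 against day 0. With scaling factors over all sites, chosen after seeing the data, K+ stops called 66 sites for day 7 against day 0 (55 higher), 18 for day 3 against day 0 and 38 for day 7 against day 3, with Lin28a c at 1.31 (adjusted p = 0.162). With median-ratio factors the count was 0 sites for K+ stops of day 3 against day 0, and 2 motifs for reads. Without the filter on low counts K+ stops called 154 sites and 1 motif, 14 sites and 134 sites in the 3 comparisons, and reads 2 motifs. With the replicate block, 9 of 9 motifs were called in the in vitro difference from day 7 (Lin28a b gained), 0 motifs were called in reads of day 7 against day 0, 0 sites in reads and in K+ stops of day 3 against day 0, 1 site in the K+ share of day 7 against day 3, and 3 sites in the change of odds of day 3 against day 0. With a pseudocount of 1, 1 site was called in K+ against Li+ on day 7. With a minimum of 50 reads in vitro, 1162 and 917 of 1168 sites were called in K+ against Li+ and in the difference from day 7, and 5 of 6 motifs in the latter. With each library centred, chosen after seeing the data, these counts were 583 sites and 3 motifs, and 90 sites and 1 motif of 9. K+ against Li+ in vitro then turned to -0.72 at Trim71 g, -0.15 at Trim71 e and -0.19 at Trim71 c, and the difference from day 7 to -0.85 at Trim71 g and -0.66 at Trim71 e, since centring removes the common excess.

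Leaving out 1 sample, sites called ran from 11 to 85, 0 to 8 and 0 to 24 in K+ stops (day 7 against day 0, day 3 against day 0, day 7 against day 3), with 0 to 1 motif in the first, from 26 to 1652, 0 to 2 and 23 to 961 in reads, and from 0 to 7 in the change of odds of day 3 against day 0. The lowest count of reads, 26, came without day 7 replicate 1. No motif was called in reads in these fits. In vitro they ran from 2528 to 3150 sites and 9 to 10 motifs for K+ against Li+, and from 1119 to 1789 sites and 6 to 7 motifs for the difference from day 7. A lone sample was assumed to vary like the other groups. Over all alternatives tried, and not only those that left out a sample, the comparisons of single motifs in cells were counted once per alternative. Direction and call were kept 773 times, the sign changed without a call 61 times, a call was gained 5 times and lost 7 times. Depth limits the shares: 7 of 11 motifs lacked 20 reads in some cell library.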
